A study of Mus musculus with 18 samples.

Results

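Cyp17a1 and Cyp11a1, the P450 enzymes that open steroid hormone synthesis, were followed in mouse liver as 2 of the 283 gene names on a focused cDNA array called Steroltalk. Both were taken by their gene name in the per-array data, and each had 1 probe spotted 3 times. They were chosen from the group values of these same arrays, which were already known, so all levels and group differences of both genes are given here as a description with standard errors and without a test. All 18 mice were female C57BL/6 animals of 16 weeks that ate a diet with 1% cholesterol for 1 week, so every group, controls included, carried the cholesterol load. Of these, 6 received tap water (vehicle), 6 received rosuvastatin at 20 mg/kg and 6 received atorvastatin at 40 mg/kg as a single oral dose, and the left lateral lobe of the liver was taken 24 h later. On each array the RNA of 1 mouse (Cy3) competed with a pool of all samples (Cy5). Values are therefore log2 ratios of a mouse over that pool after normalisation. A value of 0 is not an exact level of the pool, since albumin (Alb) was above 0 on all 18 arrays (0.26 to 1.25). The serum amyloid gene Saa1 averaged -3.98 in vehicle, -5.12 in rosuvastatin and -3.90 in atorvastatin mice. The cause of such shifts, and whether the pool held RNA beyond that of these 18 mice, was not tested. For this reason values are read between mice and groups.

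Steroid hormones are made from cholesterol. Cyp11a1, a mitochondrial enzyme, cuts the side chain of cholesterol to give pregnenolone, once the carrier protein Star has brought cholesterol to the inner mitochondrial membrane. Cyp17a1, in the endoplasmic reticulum, then hydroxylates pregnenolone and progesterone and can cut the remaining side chain, which leads to androgen precursors. The adrenal cortex and the gonads are the classical sites of steroid hormone synthesis. Statins inhibit the synthesis of cholesterol, the substrate of the pathway. Because bulk liver was measured, fewer cells of a type and less RNA per cell cannot be told apart in any value below.

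In mouse assembly GRCm38.p6, Cyp17a1 lies on chromosome 19 (46667165 to 46673000, gene ID 13074) and Cyp11a1 on chromosome 9 (57998024 to 58027031, gene ID 13070). The RefSeq promoter table of that assembly lists 2 start sites for Cyp11a1, the second of them inside the locus of the first. The 120 bases before each start are shown because the array also carries nuclear receptors, a family in which many members read the hexamer AGGTCA. The hexamer alone does not mark a site of any single receptor, such as Nr5a1 or Nr5a2 (described further on). Both starts lie on the + strand, and capitals mark that hexamer.
Cyp11a1 start 1, chr9:57997904-57998023: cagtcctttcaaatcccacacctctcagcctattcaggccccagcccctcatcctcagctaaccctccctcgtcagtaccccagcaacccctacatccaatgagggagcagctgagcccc
Cyp11a1 start 2, chr9:58014832-58014951: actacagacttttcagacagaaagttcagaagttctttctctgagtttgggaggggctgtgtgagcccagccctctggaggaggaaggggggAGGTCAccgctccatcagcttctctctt
AGGTCA was searched on both strands and was found once, from position -28 to -23 before start 2. Of all 32851 promoter windows of this length in the table, 6.91% hold it. TATAA was in neither window, against 11.8% of all windows. These matches describe letters alone, since no binding was measured.

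Both genes were read on the same arrays, so measures of array quality cover both. Their signal over the local background differed and is given for each below. The median of gene spots was 206 to 376 intensity units in the sample channel and 267.5 to 659.5 in the reference channel, over local backgrounds of 62 to 146 and 39 to 55. Between 155 and 218 of the 289 gene probes passed background on an array, and a probe had to pass on 6 or more of the 18 arrays to be kept, which left 188. Passing means that most spots of a probe (2 of 3) had a sample signal over the local background plus 2 background SDs. Hepatocyte markers behaved as the tissue label says, with 7 of 7 on the array (Alb and Apoa1 among them) above background on 18 arrays. Vehicle 5 and atorvastatin 4 stood apart from the rest, with a median r to the other arrays of 0.252 and -0.464. On these arrays 218 and 183 probes passed background. Their mean ratio of the serum amyloid genes Saa1, Saa2 and Saa3 was the highest, at -1.43 and 1.72, against -5.53 to -2.35 elsewhere. Why they stood apart was not tested. The labels do not say whether the mice of a group were housed or processed together, so the spread between them may be partly technical.

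Cyp17a1 was readily measured. Its probe passed background on 18 of 18 arrays, and this count was the same at 1 and at 3 background SDs, with all spots required, and in the reference channel. Net signal, the spot minus its local background, ran from 505 to 2276 in the sample channel (median 1286). On every array it lay above the 95th percentile of each set of control spots. The range was 1173 to 2276 (median 1726) in vehicle mice, 556 to 1743 (median 927.5) after rosuvastatin and 505 to 1356 (median 1091) after atorvastatin.

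Cyp11a1 was close to the detection limit. Its probe passed background on 9 of 18 arrays, namely 3 of 6 vehicle, 2 of 6 rosuvastatin and 4 of 6 atorvastatin arrays. The count was 18 with 1 background SD, 2 with 3 background SDs and 7 where all spots had to pass, so it was set by the rule. Net signal in the sample channel was 51 to 128 (median 82), with medians of 80.0 in vehicle, 65.0 in rosuvastatin and 86.0 in atorvastatin mice. The group ranges of this net signal, 64 to 128, 51 to 108 and 58 to 123, overlapped throughout.

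Control spots set the scale for this dim probe. Against 108 blank spots, Cyp11a1 was above their 95th percentile on 18 arrays in both channels. Against the 36 spots that the array design names as negative controls, it was above the 95th percentile on 15 arrays in the sample channel and on 18 in the reference channel. Against 18 spots of the bacterial gene CAT, which the labels do not list among the added spike RNAs, it exceeded the 95th percentile on 6 arrays and the median on 12 in the sample channel, and both on 14 arrays in the reference channel. On 6 arrays its sample signal was thus no higher than the middle of the spots of a bacterial sequence, and how much of it was Cyp11a1 transcript was not tested.

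**Figure D1:**
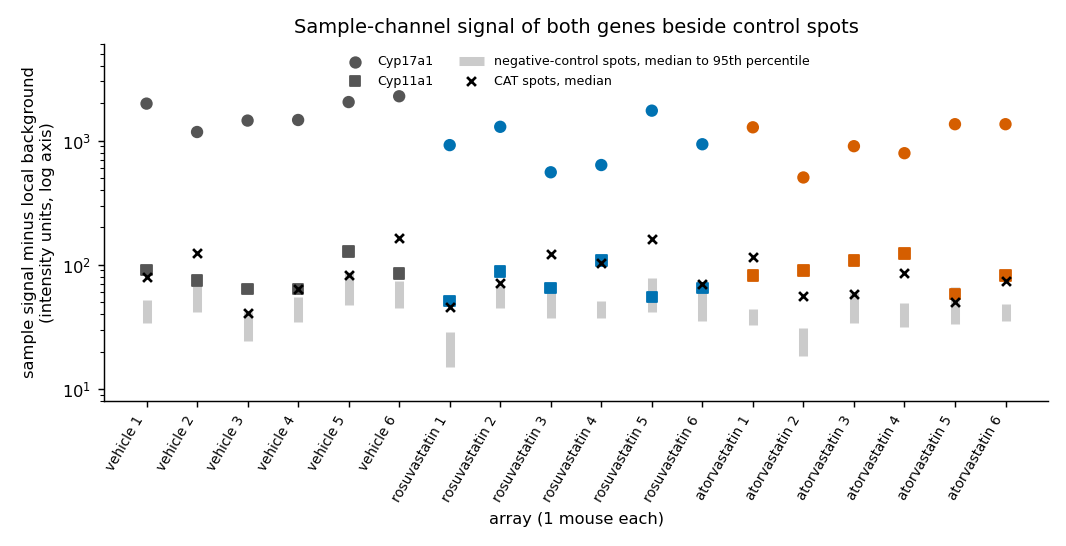
Net sample signal (spot minus local background, intensity units, log axis) of the Cyp17a1 probe (circles) and the Cyp11a1 probe (squares) on each of the 18 arrays, coloured by group (grey vehicle, blue rosuvastatin, orange atorvastatin). Grey bars run from the median to the 95th percentile of the 36 negative-control spots and crosses mark the median of the 18 CAT spots. Cyp17a1 sits between 505 and 2276 on all arrays, whereas Cyp11a1 (51 to 128) lies among the crosses; the probes differ in sequence, so their heights are not compared with each other.

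Relative to the pool, Cyp17a1 was highest and most even in vehicle mice. The 6 vehicle ratios ran from 0.27 (vehicle 5) to 0.86 (vehicle 4), with a median of 0.65 and a mean of 0.62 ± 0.23 (SD, n = 6). All vehicle values were above 0. After rosuvastatin the mice scattered from -0.84 (rosuvastatin 4) to 0.92 (rosuvastatin 5), with a median of 0.18 and a mean of 0.02 ± 0.62. In this group 5 mice lay below the lowest vehicle mouse and 1, rosuvastatin 5, lay above the highest. With these values none fell within the vehicle range, which was not so in the authors' own log2 ratios (given below). After atorvastatin the ratios ran from -0.57 (atorvastatin 2) to 0.78 (atorvastatin 1), with a median of 0.10 and a mean of 0.16 ± 0.52. Of these mice 4 lay below the vehicle range and 2, atorvastatin 1 and atorvastatin 5, lay inside it.

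The statin groups thus each held mice under the vehicle range beside mice inside it (atorvastatin) or above it (rosuvastatin). Ratios below 0 were seen in 2 rosuvastatin mice (3 and 4) and 2 atorvastatin mice (2 and 4). The spread over mice was 1.77 log2 units from end to end in the rosuvastatin group and 1.35 in the atorvastatin group, against 0.59 in the vehicle group. That these spreads differ was not tested, since Cyp17a1 was chosen on these values.

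**Figure D2:**
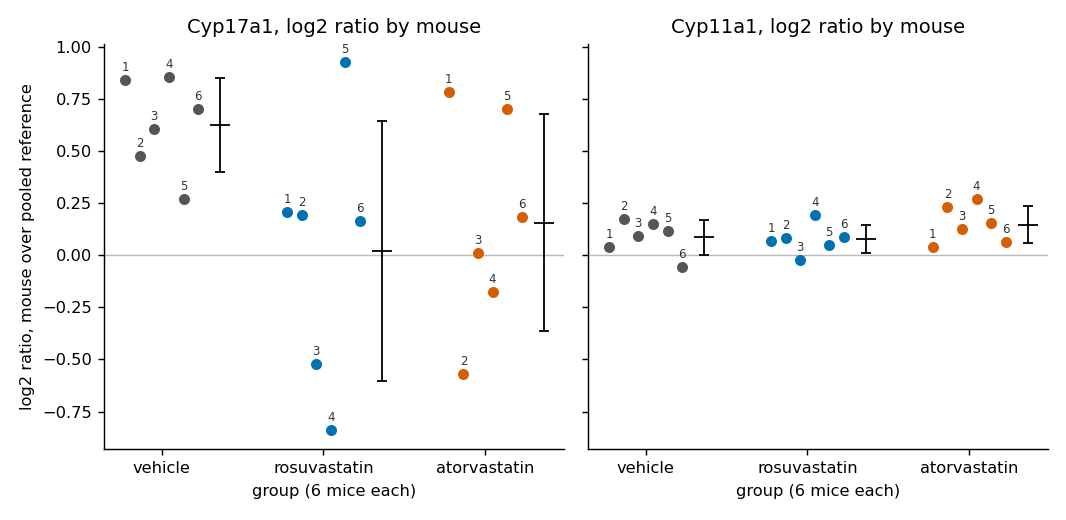
Log2 ratio of mouse over pooled reference for Cyp17a1 (left) and Cyp11a1 (right), 1 point per mouse with its replicate number, in 3 groups of 6; bars beside the points give mean ± SD. For Cyp17a1 the vehicle mice lie between 0.27 and 0.86 and the statin mice between -0.84 and 0.92, while all Cyp11a1 values lie between -0.06 and 0.27.

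The comparison of rosuvastatin with vehicle asks how a single dose altered the liver transcript on the cholesterol diet. Cyp17a1 was 0.60 log2 units lower on average (difference -0.60, SE 0.264, 6 mice in each group), which is 65.8% of the vehicle level, and 5 of 6 treated mice were below the vehicle mean. The groups overlapped through rosuvastatin 5, without which the difference was -0.78. Without rosuvastatin 4 it was -0.43. In limma, 0 of 188 probes on the array (0%) passed an adjusted p of 0.05 in this comparison, and at an unadjusted p of 0.05 there were 5 lower (2.66%) and 7 higher (3.72%). By size, ignoring sign, the Cyp17a1 difference was number 7 of the 188, and the median difference of all probes was -0.01. Such a rank favours probes that vary widely between mice, and Cyp17a1 was number 19 of 188 by SD within groups. Of all probes 97 (51.6%) were below 0.

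Atorvastatin against vehicle gave a Cyp17a1 difference of -0.47 (SE 0.264), or 72.3% of the vehicle level, with 4 of 6 treated mice below the vehicle mean. It ran from -0.59 (without atorvastatin 1) to -0.32 (without atorvastatin 2) when each mouse was left out in turn. The groups overlapped through atorvastatin 1 and atorvastatin 5. Here too 0 of 188 probes (0%) passed an adjusted p of 0.05 in limma, with 9 lower (4.79%) and 7 higher (3.72%) at an unadjusted p of 0.05. The Cyp17a1 difference was number 5 of 188 by size, while 54.3% of all probes lay below 0. Both statin comparisons used the same vehicle arrays, so their values are not independent of each other.

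Between the statins, Cyp17a1 averaged 0.16 after atorvastatin at 40 mg/kg and 0.02 after rosuvastatin at 20 mg/kg. The molecules share the dihydroxy acid side chain of the class, with a pyrrole ring in atorvastatin and a pyrimidine ring in rosuvastatin. Doses differed, so drug and dose cannot be told apart and the values stand side by side. The difference was 0.13 (SE 0.264) and fell below 0 without rosuvastatin 4 (-0.04). Every atorvastatin mouse lay within the rosuvastatin range. In this comparison 0 of 188 probes (0%) passed an adjusted p of 0.05 in limma, 8 (4.26%) were lower and 2 (1.06%) higher at an unadjusted p of 0.05, and 47.9% had a value below 0. Groups that did not overlap were found for 1 of 188 probes (0.532%) between the statins and for 0 of 188 (0%) between either statin and vehicle.

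Cyp11a1 gave nearly the same ratio in every mouse. The vehicle mice ran from -0.06 (vehicle 6) to 0.17 (vehicle 2), with a mean of 0.09 ± 0.08 (SD, n = 6). Rosuvastatin mice ran from -0.02 to 0.19 (mean 0.08 ± 0.07) and atorvastatin mice from 0.04 to 0.27 (mean 0.15 ± 0.09). The 3 groups overlapped, and the order of their means did not exceed the spread between mice. Differences were -0.01 for rosuvastatin minus vehicle, 0.06 for atorvastatin minus vehicle and 0.07 for atorvastatin minus rosuvastatin, each with an SE of 0.0583.

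The narrow spread of Cyp11a1 has to be read with its dim spots. Mice of the same group had an SD of 0.0819, and the 3 spots of the probe on 1 array had a median SD of 0.0915, which for a mean over 3 spots is 0.0528. The spread between mice was thus 1.55 times that of a spot mean. By SD between mice it was number 187 of 188, near the narrow end of the array. An offset of 50 intensity units, added to both channels before the log, pulls the ratios of dim probes towards 0. With no offset the SE of the Cyp11a1 differences was 0.0764 in place of 0.0583. A level difference in Cyp11a1 was not detectable at this signal and spread, which does not show that the groups were alike.

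Cyp17a1 was the opposite case. Mice of the same group had an SD of 0.486, number 19 of 188 where the median probe had 0.197. Its spots had a median SD of 0.0391, or 0.0226 for a mean over 3 spots, so that the spread between mice was 21.6 times that of a spot mean. One array was an exception. On atorvastatin 3 the spot ratios were 0.68, -0.40 and -0.25, a spot SD of 0.588, and taking the median of spots in place of the mean moved the atorvastatin minus vehicle difference from -0.47 to -0.52. On vehicle 2, whose record marks a top and a bottom part with sample backgrounds of 84 to 88 and 34 to 36, the Cyp17a1 spots read 0.57 and 0.49 in the top and 0.37 in the bottom part.

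Both arrays that stood apart entered these means. Vehicle 5 was the lowest vehicle mouse for Cyp17a1 (0.27), and atorvastatin 4 (-0.18) was next to lowest in its group. Without both arrays the Cyp17a1 differences were -0.67 for rosuvastatin minus vehicle, -0.47 for atorvastatin minus vehicle and 0.20 for atorvastatin minus rosuvastatin.

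The labels name no batch, but the per-array records give the area of the background ring around a spot, which took 4 values. A ring of 197 pixels was used on 11 arrays, 212 pixels on 2 (vehicle 1 and atorvastatin 3), 214 pixels on 2 (vehicle 3 and rosuvastatin 3) and 228 pixels on 3 (rosuvastatin 4, atorvastatin 1 and atorvastatin 4). Within the 11 arrays the Cyp17a1 difference between rosuvastatin and vehicle was -0.20 (SE 0.266, 4 against 4), compared with -0.60 over all arrays, and it was -0.11 without vehicle 4 and -0.39 without rosuvastatin 5. Both rosuvastatin mice below 0 lay outside these 11 arrays. The pair with 214 pixels gave -1.13 (1 mouse against 1).

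For atorvastatin minus vehicle the same 11 arrays gave -0.47 (SE 0.288, 3 against 4), the same as over all arrays after rounding, but it was -0.13 without atorvastatin 2 and -0.77 without atorvastatin 5. The pair with 212 pixels gave -0.83. Atorvastatin minus rosuvastatin turned to -0.27 within the 11 arrays and back to 0.07 there without atorvastatin 2, while the 3 arrays with 228 pixels gave 1.14 (2 mice against 1). With the ring area as a block in the fit, the 3 differences were -0.56, -0.43 and 0.13. The part of the ring area in these values was not tested.

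**Figure D3:**
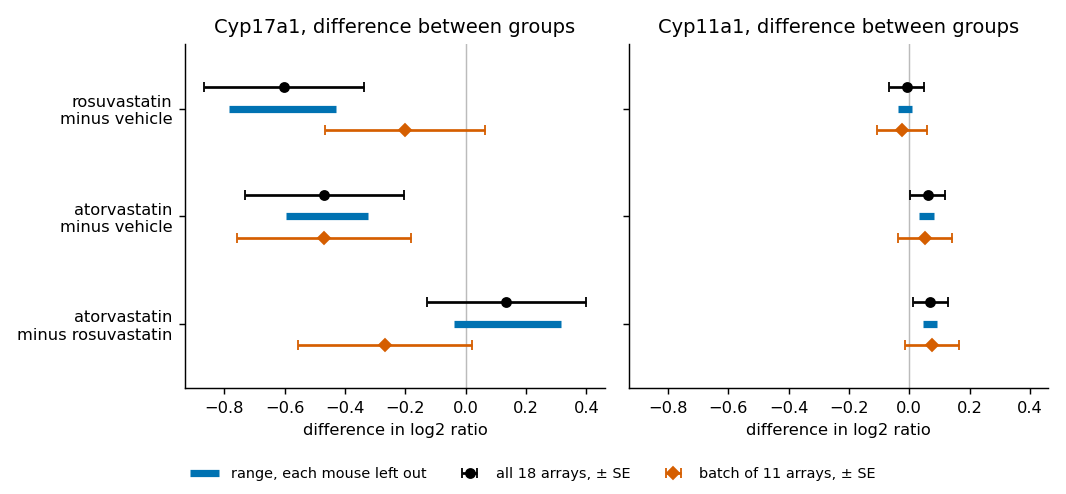
Differences in log2 ratio between groups for Cyp17a1 (left) and Cyp11a1 (right) on the same horizontal axis. Black points with SE bars use all 18 arrays, blue bars span the values with each mouse left out in turn, and orange diamonds with SE bars use only the 11 arrays with 1 common background ring; for Cyp17a1 rosuvastatin minus vehicle moves from -0.60 to -0.20, and the Cyp11a1 points lie between -0.02 and 0.08.

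The authors' table of log2 ratios treated the genes differently. It holds a Cyp17a1 value on 18 arrays, with r = 0.931 to the values above over the 18 arrays, and its group differences were -0.68, -0.57 and 0.11 in the same order. There the vehicle mice ran from 0.287 to 1.413, a wider range than above. The rosuvastatin mice ran from -0.882 to 0.837 and the atorvastatin mice from -0.564 to 0.797. Rosuvastatin 2 (0.339) and rosuvastatin 5 (0.837) lay inside that vehicle range, so their place relative to it depended on the processing. For Cyp11a1 the authors' table holds 10 values, 6 in vehicle, 1 in rosuvastatin and 3 in atorvastatin mice. Over these 10 arrays the correlation with the values above was 0.058, and the cause was not tested.

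Among other steroidogenic genes, the array carried 4 more from a list of 28. Star, which delivers cholesterol to Cyp11a1, Cyp19a1, the aromatase that makes estrogens, and Cyp11b2, the aldosterone synthase, were above background on 0 of 18 arrays. Cyp21a1, which hydroxylates progesterone towards corticosteroids and has a near-identical pseudogene that a cDNA probe may not tell apart, was above background on 17 arrays. Its ratio was -0.01 ± 0.14 (SD, n = 6) in vehicle, 0.05 ± 0.03 in rosuvastatin and 0.03 ± 0.09 in atorvastatin mice, and the groups overlapped. Its differences from vehicle were 0.06 and 0.03 (SE 0.066). Cyp21a1 did not pass an adjusted p of 0.05 in limma in any comparison, as for the array as a whole (0 of 188).

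Markers of adrenal cortex were looked at because a dissection can carry other tissue. Star, Cyp11b2 and Nr5a1 were above background on 0 of 18 arrays, and the remaining markers of the 5 on the array were Cyp11a1 and Cyp21a1 themselves. The mean ratio of the 2 detected markers ran from -0.03 to 0.11 in vehicle, 0.01 to 0.14 in rosuvastatin and 0.01 to 0.18 in atorvastatin mice. Cyp17a1 is not one of these markers, and the part of other tissue in the Cyp17a1 and Cyp11a1 values was not tested.

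Regulators of steroidogenic genes were represented by 16 probes, of which 10 were kept. Nr5a1 (SF-1), a master regulator of steroidogenic genes, was above background on 0 arrays, as were Nr0b1 and Nr0b2, which repress it and its relatives, and Creb1. Its liver relative Nr5a2 (LRH-1) was above background on 18 arrays, with 0.13 ± 0.18 in vehicle, 0.15 ± 0.11 in rosuvastatin and 0.17 ± 0.15 in atorvastatin mice. Hnf4a, Foxa2, Ppargc1a, Sp1 and Nr2f2, factors of hepatocyte gene control among other roles, were above background on 18 arrays as well. Cbp passed on 17 arrays, Esrra on 10 and Nr4a1 on 1, and the probes named Crem on 18 and on 0. Of the 10 kept probes 0 passed the test in any comparison, as for the array as a whole (0 of 188). From vehicle, 6 of 10 lay below 0 after rosuvastatin (median -0.01) and 3 of 10 after atorvastatin (median 0.04). Of all 188 probes, 51.6% and 54.3% lay below 0 in these comparisons. The highest single value was that of Hnf4a, 0.25 (SE 0.14) for atorvastatin minus rosuvastatin.

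Of the receptors for steroid hormones, 5 were on the array and 2 were kept. Esr1, the estrogen receptor, was above background on 0 arrays under the array name Nr3a1, as were the probes named Nr3a2 and Nr3c3. Nr3c1, the glucocorticoid receptor, was above on 12 arrays and differed from vehicle by -0.06 and 0.01 (SE 0.07). The probe named Nr3c4, above on 10 arrays, had -0.10 ± 0.25 in vehicle, 0.13 ± 0.16 in rosuvastatin and 0.17 ± 0.12 in atorvastatin mice, with differences of 0.23 and 0.26 (SE 0.106). These did not pass the test over all probes, and the vehicle mean held the low value of vehicle 5 (-0.58).

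Over the 18 arrays, the genes whose ratios most resembled that of Cyp17a1 were 5 enzymes of cholesterol synthesis. These correlations are descriptions over arrays that share 1 reference pool and 1 normalisation. The highest belonged to Mvk, mevalonate kinase (Pearson r 0.766), Nsdhl, a sterol dehydrogenase (0.729), Msmo1, the sterol methyl oxidase (0.695), Fdps, which makes farnesyl diphosphate (0.687), and Fdft1, squalene synthase (0.675). With group means removed they were 0.776, 0.715, 0.725, 0.628 and 0.670. Without both arrays that stood apart they were 0.812, 0.792, 0.762, 0.754 and 0.709. Within the 11 arrays with 1 ring area they were lower, at 0.506, 0.305, 0.246, 0.258 and 0.172.

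Single mice followed this order in part. Rosuvastatin 5, the highest Cyp17a1 mouse, had the highest Mvk ratio of all (0.33), and rosuvastatin 4, the lowest Cyp17a1 mouse, had the lowest (-0.65). Rosuvastatin 3 followed at -0.54. Vehicle 5, the lowest vehicle mouse for Cyp17a1, was the lowest vehicle mouse for Mvk (-0.54) and for Nsdhl (-1.09). Atorvastatin 2 departed from this, with the lowest Cyp17a1 of its group (-0.57) but an Nsdhl ratio of -0.05.

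Of 16 kept probes of cholesterol synthesis, a list added after these values were seen, 14 had r over 0.4 with Cyp17a1, compared with 23 of the 171 other probes. Their median r was 0.652 and that of the others -0.08. They took 8 of the first 10 places and 13 of the first 20. Mvk, Nsdhl, Msmo1, Fdps and Fdft1, named above for their high r, are counted in this list. The contrast with the other probes was thus partly fixed beforehand and is a description only. From vehicle, 15 of these 16 probes lay below 0 after rosuvastatin (median -0.40) and 13 after atorvastatin (median -0.10). Of all 188 probes it was 51.6% and 54.3%. Idi1 (0.101) and Acat2 (0.394) were the lowest of the list. Within groups of 6 mice the median r was 0.730 in vehicle, 0.926 in rosuvastatin and 0.504 in atorvastatin. Within the 11 arrays with 1 ring area it dropped to 0.252, against -0.03 for the other probes. Rosuvastatin 3 and rosuvastatin 4, the lowest for both Cyp17a1 and Mvk in their group, are outside that set, and the part of the ring area in the likeness was not tested.

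At the other end lay Cyp2e1, a P450 that metabolises ethanol and drugs (-0.736), the conjugate exporter Abcc3 (-0.704) and the deacetylase Sirt1 (-0.685). Within the 11 arrays with 1 ring area these were -0.737, -0.690 and -0.523. Within groups the sign was not the same throughout: Cyp2e1 had r = 0.261 in vehicle, -0.806 in rosuvastatin and -0.826 in atorvastatin mice. Abcc3 had -0.255, -0.947 and -0.924, and Sirt1 -0.793, -0.982 and 0.0684. Each rests on 6 mice, and these differences between groups were not tested. Cyp2e1 was lowest in vehicle 6 (-0.50) and highest in rosuvastatin 4 (0.17).

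**Figure D4:**
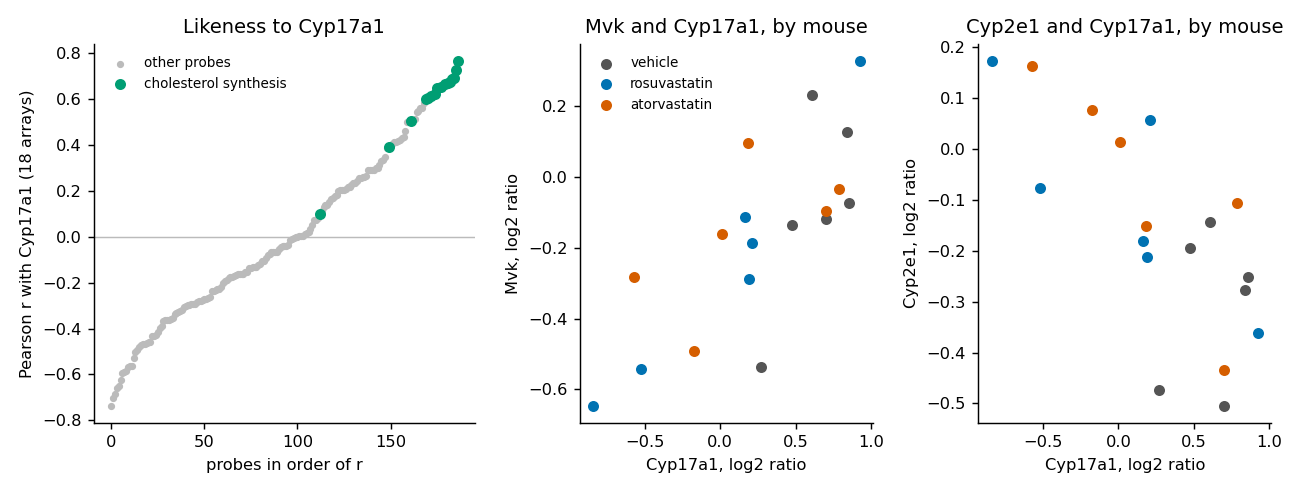
Left: Pearson r of each of the 187 other kept probes with Cyp17a1 over 18 arrays, in order, with the 16 cholesterol synthesis probes in green (median 0.652). Centre and right: log2 ratios of Mvk and Cyp2e1 against Cyp17a1, 1 point per mouse, coloured by group; Mvk rises with Cyp17a1 (r 0.766) and Cyp2e1 declines (r -0.736).

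Cyp11a1 did not share this pattern. Its own r with Cyp17a1 was -0.387 over the 18 arrays. With Cyp11a1, 0 of the 16 cholesterol synthesis probes had r over 0.4 (median -0.32), compared with 43 of the 171 other probes (median 0.03). The highest r belonged to Cebpa (0.681), c-Fos (0.678), Ppargc1b (0.663), Rxrb (0.652) and Nr1d2 (0.645). The lowest were Cyp7a1, the first enzyme of bile acid synthesis (-0.809), Cyp1a2 (-0.708) and Acat2 (-0.615). Cyp7a1 was above background on 11 arrays, and c-Fos and Ppargc1b on 8 each, so that several of these pairs join dim probes. All Cyp11a1 ratios lay between -0.06 and 0.27, so these r values rank small differences.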

How the data were processed

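Scanner data of 18 two-colour arrays were analysed, each with 1440 spots, of which 870 belonged to 289 gene probes. Per the file headers, the deposited intensity values are the median brightness of each spot and of its local background in both channels, on a linear scale without subtraction. A second deposited table holds log2 ratios by the authors. Set against the scanner values, these were sample over reference (r within an array 0.926 to 0.998) with column medians of -0.32 to 0.564. How that table was made, and which scanner and image software were used, is not given in the sources used. No per-sample column was left unmapped. The packages limma 3.58.1 and statmod 1.5.0 were run under R 4.3.3. Background correction was by normexp with an offset of 50, log2 ratios were normalised by loess within each array with control spots at weight 0, and spots of a probe were averaged. No dyes were swapped, so a dye effect is common to all arrays. Probes above background on at least 6 of 18 arrays were kept (188, of which 144 on all). One fit (lmFit, eBayes) held a mean per group. Tests were two-sided with Benjamini-Hochberg adjustment over the 188 probes. The fit was tested on simulated data with a shift of 2 log2 units in 40 probes. That setting does not show what the fit can find at smaller differences, such as those of Cyp17a1. The SE values come from this fit, with a precision limited by the number of arrays. Both genes, the gene lists, the tests and the alternatives were chosen with earlier results of these data known. Named were both genes, the array genes of 3 lists (steroidogenesis, its regulators, steroid hormone receptors), and for each gene the 5 probes with the highest and the 3 with the lowest Pearson r. Cholesterol synthesis genes, and single examples given with them, were chosen after their values were seen. Of the array names, 254 matched the RefSeq table of GRCm38.p6, which also gave loci and promoters. The alternatives covered background correction, normalisation, spot summary, filter, deposited ratios, array weights, replicate number and ring area as blocks, and each mouse left out. Leaving out both arrays that stood apart, the sample channel alone and normexp without an offset were added after seeing the data.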

Additional observations from a re-analysis of the deposited data

Results flagged for a closer look

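Among the probes kept from the described lists, 45 groups of 6 mice were screened for a mouse far from the rest, and chance flags about 1 in 20 such groups. No group of Cyp17a1 or Cyp11a1 was among those found. Vehicle 5 was far above its group for the glucocorticoid receptor Nr3c1 (0.32) and far below it for the probe named Nr3c4 (-0.58). It is one of the arrays that stood apart. Atorvastatin 1 was far above its group for Nr3c4 (0.39). Atorvastatin 4, the other array that stood apart, was far above its group for Sp1 (0.38), and atorvastatin 6 was far below its group for Foxa2 (-0.56).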

How the results depend on the processing

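Cyp17a1 was lower than in vehicle mice in 28 of 28 alternatives for rosuvastatin (-1.13 to -0.20) and in 28 of 28 for atorvastatin (-0.83 to -0.32). The alternatives reuse the same 18 mice, and the gene was chosen on these values, so such counts describe the processing only. With each mouse left out the ranges were -0.78 to -0.43 and -0.59 to -0.32. Within the 11 arrays of 1 ring area, Cyp17a1 reached -0.11 for rosuvastatin (without vehicle 4) and -0.13 for atorvastatin (without atorvastatin 2). Its difference between statins changed sign in 3 of 28 (-0.27 within the 11 arrays of 1 ring area, -0.05 with the sample channel alone, -0.04 without rosuvastatin 4). With each mouse left out, the difference between statins ranged up to 0.31 (without rosuvastatin 5). The values furthest from those above were -1.13 for rosuvastatin minus vehicle (214 pixels) and 1.14 for atorvastatin minus rosuvastatin (228 pixels). For Cyp11a1, rosuvastatin minus vehicle was 0.0738 without background correction and -0.11 in the arrays with 214 pixels, with the opposite sign in 7 of 26 alternatives. Atorvastatin minus vehicle was 0.17 with the sample channel alone, and atorvastatin minus rosuvastatin was -0.0377 in the arrays with 228 pixels. Cyp11a1 was above background on 18 arrays at 1 background SD, 2 at 3 SDs and 18 in the reference channel. The causes were not tested. It had no value where only probes above background on all arrays were kept, nor in the fit of the deposited table. Labels repeat the numbers 1 to 6 across groups, and mice with the same number were not taken as pairs in the main fit. Over 18 same-numbered pairs the correlation of deviations was -0.603 to 0.613 (median 0.172) and 10 exceeded 0.1. These values do not settle whether the numbers mark pairs. With the replicate block, 2 probes passed for atorvastatin against vehicle in place of 0, 0 passed in the other comparisons, and the Cyp17a1 differences were unchanged at -0.60, -0.47 and 0.13 (SE 0.245). All other alternatives gave 0 probes past the threshold in each comparison. Signal over background limits Cyp11a1.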
